A study of Macaca mulatta with 24 samples.

Results

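The genes described here encode the respiratory chain and ATP synthase, in cultured airway epithelium of rhesus macaques exposed to wood smoke or to filtered air. Rows were taken by symbol: names starting with NDUF, UQCR, ATP5 or COX4 to COX8, the 4 succinate dehydrogenase genes SDHA to SDHD, and the protein genes of mitochondrial DNA. Of 90 such rows, 87 reached a value of 10 in at least 4 libraries, among 14062 genes of 35432 that passed the same filter. They comprise 13 mitochondrially encoded genes and 74 nuclear genes: 29 of complex I, 8 complex I assembly factors (NDUFAF genes), 4 of complex II, 5 of complex III, 13 of complex IV and 15 of complex V. NDUFA4 and NDUFA4L2 are counted with complex IV. The 3 rows below the filter were COX4I2, COX6A2 and COX6B2, minor isoforms of complex IV subunits, which reached at most 2.30, 8.67 and 6.18 normalized counts in any library. NDUFA11, NDUFB1, ATP5ME, COX6A1 and COX8C had no symbol in the table's row names and were therefore not counted. Values are the normalized signal of the deposited table, written here as normalized counts.

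The cells were primary tracheobronchial epithelial cells of 4 adult female animals, S1 to S4, aged 5463 (S1), 2930 (S2), 2238 (S3) and 1128 (S4) days. They were grown on porous inserts and differentiated with retinoic acid while their upper surface faced air. Every group had 1 library per animal: diluted whole wood smoke or filtered air in sessions of 6 hours for 1 day, for 5 days, or for 5 days with 7 days of recovery afterwards, 24 libraries in all. Libraries were made from poly-A selected RNA, the labels describe epithelial cells only, grown apart from the rest of the airway wall, and effects of age and of the individual cannot be told apart, since no 2 animals shared an age.

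The respiratory chain passes electrons from NADH (complex I) and succinate (complex II) through complexes III and IV to oxygen, and complex V uses the resulting proton gradient to make ATP. Mitochondrial DNA encodes a small core set of subunits, transcribed as long precursors and cut into single messengers; all of complex II and the remaining subunits of the others come from nuclear genes and are imported. In airway epithelium this ATP drives ciliary beating and ion transport, and wood smoke is known as a source of oxidants and electrophiles.

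Library totals were 11837168 to 15200096 normalized counts. One library differed from the rest, the 5-day air culture of S1: its median correlation with the other libraries over the tested genes was 0.860, against 0.931 to 0.956 for the remaining 23. Markers of ciliated and basal cells were present in all libraries. Markers listed for other cell types were mixed. The endothelial gene CDH5 was listed at 0 in 24 libraries, but PECAM1 (11.8 to 179.8) and VWF (50.9 to 121) were above 0 in all. The leukocyte gene PTPRC was listed at 0 in 22 libraries and CD3E reached at most 8.64. By contrast LYZ (1471 to 4679), CD68 (194 to 932) and CD14 (41.1 to 259) were above 0 in all. Of the fibroblast markers, PDGFRA (339.8 to 685) was above 0 in all libraries. DCN was at 0 in 22 libraries, and COL1A1, COL1A2 and COL3A1 reached at most 33.9, 21.7 and 67.0. The muscle and ionocyte markers were at or near 0. Levels in bulk RNA cannot tell apart fewer cells of a type and less RNA per cell. Differences are on the log2(value + 1) scale with their standard error (SE), from limma fitted to all 24 libraries. A gene is said to pass where the Benjamini-Hochberg adjusted p over the 14062 genes was under 0.05, "paired fit" means limma with animal as a block, and "the reduced paired fit" also leaves out the 5-day air library of S1. Differences given as without that library, with no fit named, are from limma without a block. That fit keeps the other libraries of S1, so the groups compared no longer hold the same animals.

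Mitochondrially encoded transcripts took 2.95 to 8.82% of the normalized counts of a library and the 66 nuclear encoded subunit genes (assembly factors left out) 0.538 to 0.913%. In air after 1 day the mitochondrial share was 8.82, 6.52, 5.71 and 6.75% in S1 to S4, and in smoke it was 6.37, 6.10, 6.02 and 6.39%. After 5 days it was 8.49, 3.59, 3.67 and 2.95% in air and 4.97, 4.13, 4.60 and 4.71% in smoke. After recovery it was 6.96, 5.89, 5.10 and 3.81% in air and 4.68, 5.07, 3.68 and 3.57% in smoke. Both 1-day groups lay above the smoke libraries of 5 days and of recovery, and the recovery groups overlapped, although the smoke library was the lower of the pair in each animal. The nuclear share was 0.583, 0.538, 0.598 and 0.572% in air after recovery and 0.609, 0.619, 0.665 and 0.680% in smoke, with no overlap between the groups.

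The ratio of the mitochondrial to the nuclear sum condenses both quantities, and no test is given for it because it is a score over the members. After 1 day, smoke minus air on the log2 scale was −0.41, −0.03, 0.02 and −0.12 in S1 to S4 (mean −0.13 ± 0.19 SD, n = 4). After 5 days it was −0.30, 0.16, 0.09 and 0.54 (mean 0.12 ± 0.35 SD, n = 4), and 0.26 without S1. After recovery it was −0.63, −0.42, −0.63 and −0.35 (mean −0.51 ± 0.15 SD, n = 4), a ratio 0.704 times that of air. The recovery difference was thus below 0 in 4 of 4 animals and larger than its spread, whereas the values at 1 day and 5 days crossed 0. Both parts contributed at recovery: the mitochondrial sum differed by −0.36 ± 0.24 (SD, n = 4) and was lower in 4 of 4 animals, and the nuclear sum by 0.15 ± 0.10 (SD, n = 4) and was higher in 4 of 4.

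**Figure D1:**
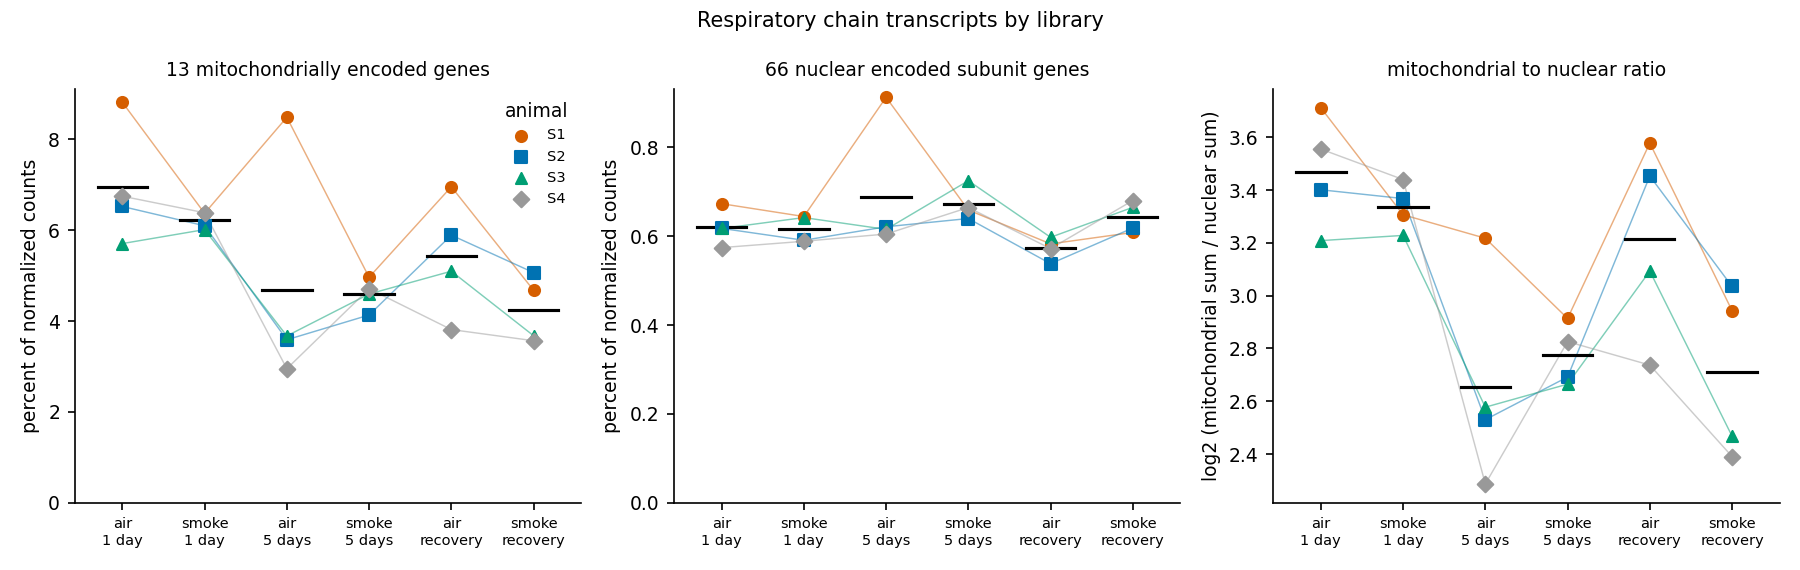
Share of normalized counts in the 13 mitochondrially encoded genes (left) and the 66 nuclear encoded subunit genes (middle), in percent, and the log2 ratio of the 2 sums (right), by group; points are libraries, lines join the libraries of an animal and black bars are group means. After recovery the ratio was lower in smoke than in air in each animal, and the 5-day air library of S1 had the highest nuclear share, 0.913%.

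The 1-day comparison asks what a single smoke session does to these genes. No member passed at 1 day, where 0.0284% of all tested genes did, and 1 of 87 had an unadjusted p under 0.05, beside 1.88%; in the paired fit 0 passed as well, beside 0.0782%. Of the nuclear members, 56 of 74 were above 0 with a median of 0.08, and of the mitochondrially encoded genes 3 of 13 with a median of −0.06, beside 7146 of 14062 genes and a median of 0.00. The nuclear median was 0.00 or below when libraries were scaled by their totals. The largest estimate was that of NDUFAF8, a small assembly factor, at 0.65 ± 0.31 (adjusted p = 1.00), higher in 4 of 4 animals but at only 9.18 to 27.2 normalized counts. NDUFB4, an accessory subunit of complex I, stood at 663, 704, 608 and 589 in air and at 771, 745, 723 and 708 in smoke. Its groups did not overlap, and its difference was 0.20 ± 0.15. The members with the smallest p in the other nuclear classes were SDHA (0.10 ± 0.07), UQCRH (0.14 ± 0.18), COX7A2L (0.43 ± 0.31) and ATP5F1A (0.12 ± 0.09). The groups of 3 members did not overlap upwards and those of 0 downwards, beside 1.51 and 2.59% of all tested genes.

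The 5-day comparison asks how 5 days of repeated sessions left the same genes. No member passed without a block, with 0.0711% of tested genes passing and 3 members at an unadjusted p under 0.05, beside 9.29%. In the paired fit 1 passed, beside 1.69% of tested genes. The members with the smallest p in the nuclear classes other than complex I, besides ATP5F1A, were SDHB (−0.20 ± 0.14), UQCRH (−0.22 ± 0.18), COX7B (−0.45 ± 0.26) and the assembly factor NDUFAF3 (−0.20 ± 0.20). The last 4 were lower in 2 or 3 of 4 animals, and without the 5-day air library from S1 they were at 0.00, 0.05, −0.04 and 0.05.

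The S1 air library decided the class medians at 5 days. With it, 17 of 74 nuclear members were above 0 (median −0.13), and 0 of the 13 complex IV genes (median −0.26). Without it, 61 of 74 were above 0 (median 0.08), and 8 of 13 in complex IV (median 0.07). The mitochondrially encoded median was 0.05 with the library and 0.52 without it, where 13 of 13 were above 0. The values without it come from limma without a block, which kept the 5-day smoke library of S1. This smoke library had the highest mitochondrial share of its group (4.97%). Leaving out single whole animals gave a mitochondrially encoded median of at most 0.45. In the reduced paired fit 8 members passed, all higher in smoke, beside 6.26% of tested genes: ND1 (0.57, adjusted p = 0.0223), COX3 (0.51, adjusted p = 0.0456) and ND3 (0.48, adjusted p = 0.0266) of mitochondrial DNA, and among the nuclear ones NDUFS4, NDUFB8, NDUFA9 and ATP5MC1, which encodes the c subunit of the ATP synthase rotor. The 6.26% is not a neutral comparison for the 8. The 5-day air library of S1 belongs to this comparison and held more of most members than the other air libraries of that day. ND5 and ND4L were less affected by that library, at 0.27 ± 0.17 and 0.26 ± 0.17 with it, and did not pass without a block, in the paired fit or in the reduced one. ATP5F1A, the alpha subunit of complex V, was higher in 4 of 4 animals without overlap of the groups (0.22 ± 0.09, adjusted p = 0.444), and was at 0.14 in the reduced paired fit (adjusted p = 0.0981).

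NDUFA4L2, a paralog of NDUFA4 known as a hypoxia-induced gene, was at 1764, 1798, 1128 and 1123 in air after 5 days and at 456, 1691, 682 and 1046 in smoke. S1 was the animal with the widest gap, and its air value comes from the 5-day air library that differed from the rest. The difference was −0.72 ± 0.41 (adjusted p = 0.610), lower in 4 of 4 animals. At 1 day, S1 was low in both groups, with 345 in air and 405 in smoke, while the other animals were at 716 to 1598. After recovery all 8 libraries lay between 1212 and 1614.

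**Figure D2:**
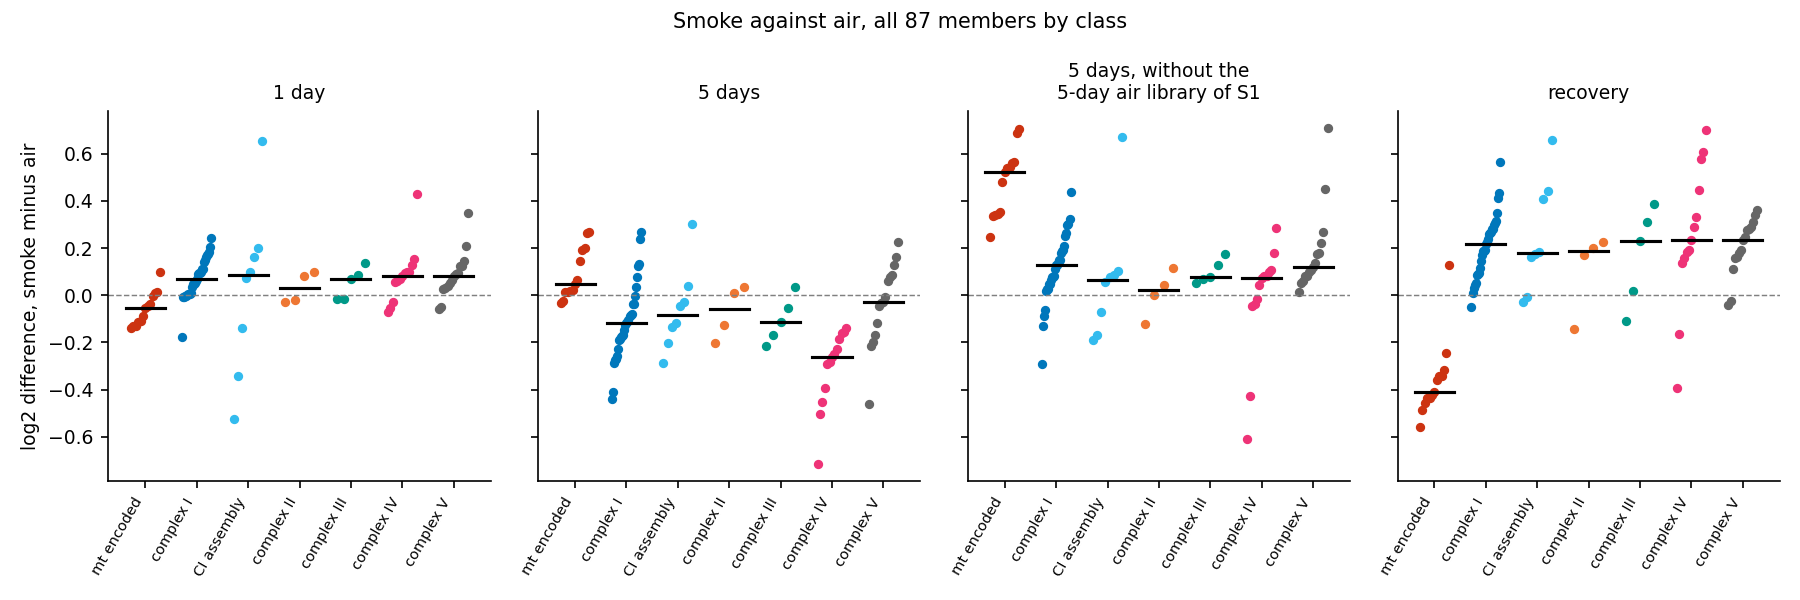
Log2 difference between smoke and air of each of the 87 members by class (mt encoded, mitochondrially encoded; CI assembly, complex I assembly factors), with black bars at class medians, after 1 day, after 5 days with all libraries and without that of S1 in air, and after recovery. The mitochondrially encoded median was −0.06 at 1 day, 0.05 at 5 days (0.52 without that library) and −0.41 after recovery.

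After recovery the 2 genomes lay on opposite sides of 0. Of the nuclear members, 65 of 74 were above 0 (median 0.21), and of the mitochondrially encoded genes 12 of 13 were below 0 (median −0.41), beside 7199 of 14062 genes above 0 and a median of 0.01. Without a block no member passed, where 0.242% of tested genes did, and 17 had an unadjusted p under 0.05, beside 8.51%; the paired fit passed 1, beside 3.41%. In the reduced paired fit 44 of 87 passed, beside 18.8% of tested genes: 36 were higher, all nuclear, and 8 lower, of which 7 were mitochondrially encoded. The library left out there is not part of this comparison. The estimates were the same with and without it, as for NDUFC2 (0.41) and COX7A2 (0.70), so the added calls reflect a smaller residual spread. Its median deviation was 1.69 in mitochondrially encoded and 0.94 in nuclear members, against −0.01 over all tested genes. The 18.8% is therefore not a neutral comparison for the 44. The groups of 25 members did not overlap upwards, all of them nuclear, beside 3.67% of tested genes, and those of 0 members downwards, beside 4.37%. Basal cell markers moved in the same comparison. The 4 of 5 listed that are in the table (KRT5, ITGB4, NGFR and TP63) were all lower in smoke, KRT5 (−1.22) and ITGB4 (−1.04) past the threshold, and their sum was 44384 to 53689 in air and 15215 to 33739 in smoke. The part of cell composition in these differences was not tested.

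Among the mitochondrially encoded genes, ND5, the largest of them and a proton-pumping subunit of complex I, was at 50232, 45217, 37452 and 28688 in air after recovery and at 31531, 35257, 24710 and 25033 in smoke. The lowest air library, that of S4, lay within the smoke range, and the smoke library was lower in 4 of 4 animals. The difference was −0.46 ± 0.17 (adjusted p = 0.366; 0.0720 in the paired fit and 0.0161 in the reduced one). CYTB, the catalytic cytochrome of complex III, was the lowest at −0.56 ± 0.32, followed by ND1 at −0.49 ± 0.33, ATP8 and ND6 at −0.43 and ND4L at −0.42. COX1, the catalytic subunit of complex IV, was at −0.25 ± 0.21 and was lower in 3 of 4 animals. The exception was ND3, at 0.13 ± 0.31 and higher in 3 of 4. ND6 lies on the opposite strand to the others, ATP6 and ATP8 overlap as do ND4 and ND4L, and copies of mitochondrial DNA lie in nuclear chromosomes, so the division of reads among these genes is uncertain.

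In complex I, 28 of 29 nuclear subunits were above 0 after recovery (median 0.22). NDUFC2 was at 914, 977, 920 and 1000 in air and at 979, 1462, 1221 and 1468 in smoke. Only the smoke library of S1 fell within the air range, and the difference was 0.41 ± 0.14 (adjusted p = 0.301; 0.0802 in the paired fit and 0.000743 in the reduced one). NDUFB5 passed in the paired fit as well (0.32, adjusted p = 0.0473): it was at 830, 883, 1284 and 1133 in air and at 911, 1093, 1676 and 1539 in smoke. Its animals differed more than its groups, with S1 and S2 below S3 and S4 in both recovery groups, and the fit without a block gave an adjusted p of 0.826. NDUFA2 (0.43 ± 0.20) and NDUFAB1 (0.26 ± 0.11), the mitochondrial acyl carrier protein, were higher without overlap. The 7 nuclear core subunits, which carry the flavin and iron–sulfur clusters or line the quinone site, had a median of 0.19, and the 22 other nuclear subunits were all above 0 with a median of 0.26; the division was made after the values were seen. The assembly factors were above 0 for 6 of 8, led by NDUFAF8 (0.66 ± 0.31), NDUFAF7 (0.44 ± 0.21) and NDUFAF6 (0.41 ± 0.18).

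Complex II, which has no mitochondrially encoded subunit, split between its catalytic flavoprotein and the rest. SDHA was at 1891, 2100, 1991 and 1950 in air after recovery and at 1722, 1840, 1733 and 1892 in smoke, lower in 4 of 4 animals by a small margin (−0.14 ± 0.07, adjusted p = 0.630; 0.0456 in the reduced paired fit). SDHD, a membrane anchor, was at 613, 652, 602 and 515 in air and at 683, 731, 713 and 652 in smoke. The groups of SDHD met without overlapping, and the difference was 0.23 ± 0.11 (adjusted p = 0.594; 0.00711 in the reduced paired fit). SDHC, the other anchor (0.20 ± 0.09), and the iron–sulfur subunit SDHB (0.17 ± 0.14) were higher in 4 of 4 animals. At 5 days SDHD had been lower in smoke in each animal, and the change of its smoke effect from 5 days to recovery, 0.35 ± 0.16, passed in the paired fit (adjusted p = 0.0452).

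In complex III, UQCRB, a small subunit of the quinone-binding region, was at 1090, 864, 954 and 873 in air after recovery and at 1132, 1241, 1324 and 1228 in smoke, without overlap. The difference was 0.38 ± 0.13 (adjusted p = 0.317; 0.00102 in the reduced paired fit). UQCRQ was at 0.31 ± 0.18 and UQCRC1 and UQCRC2, the large core proteins, at −0.11 and 0.02.

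In complex IV, 11 of 13 genes were above 0 (median 0.23). COX7A2, the broadly expressed isoform of subunit VIIa, was at 345, 529, 359 and 367 in air after recovery and at 482, 838, 536 and 774 in smoke. Each smoke library was above its own air library by 0.48 to 1.07, with overlap through the air library of S2. The difference, 0.70 ± 0.29, was the largest among the members after recovery (adjusted p = 0.470; 0.000102 in the reduced paired fit). COX7A1, the isoform known from heart and skeletal muscle, differed by 0.58 ± 0.35, COX7B by 0.61 ± 0.26 and NDUFA4 by 0.45 ± 0.27, and each was higher in 4 of 4 animals. COX6B1 (0.29 ± 0.21) and COX8A (0.19 ± 0.23) were higher without overlap, and COX4I1, the common isoform of subunit IV, was at 0.13 ± 0.21. Below 0 were NDUFA4L2 at −0.17 ± 0.41 and COX7A2L, a factor for joining complexes III and IV, at −0.39 ± 0.31.

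In complex V the alpha and beta subunits, which form the catalytic head, were at −0.04 ± 0.09 (ATP5F1A) and −0.03 ± 0.09 (ATP5F1B), and the other 13 genes were all above 0, from 0.11 to 0.36. ATP5F1C, the central stalk, was at 1493, 1447, 1276 and 1387 in air and at 1659, 2099, 1562 and 1802 in smoke, without overlap (0.34 ± 0.14, adjusted p = 0.450; 0.00140 in the reduced paired fit). ATP5MG, a membrane subunit, was at 0.36 ± 0.16, and the inhibitor ATP5IF1 at 0.25 ± 0.15 with 3 of 4 animals higher.

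**Figure D3:**
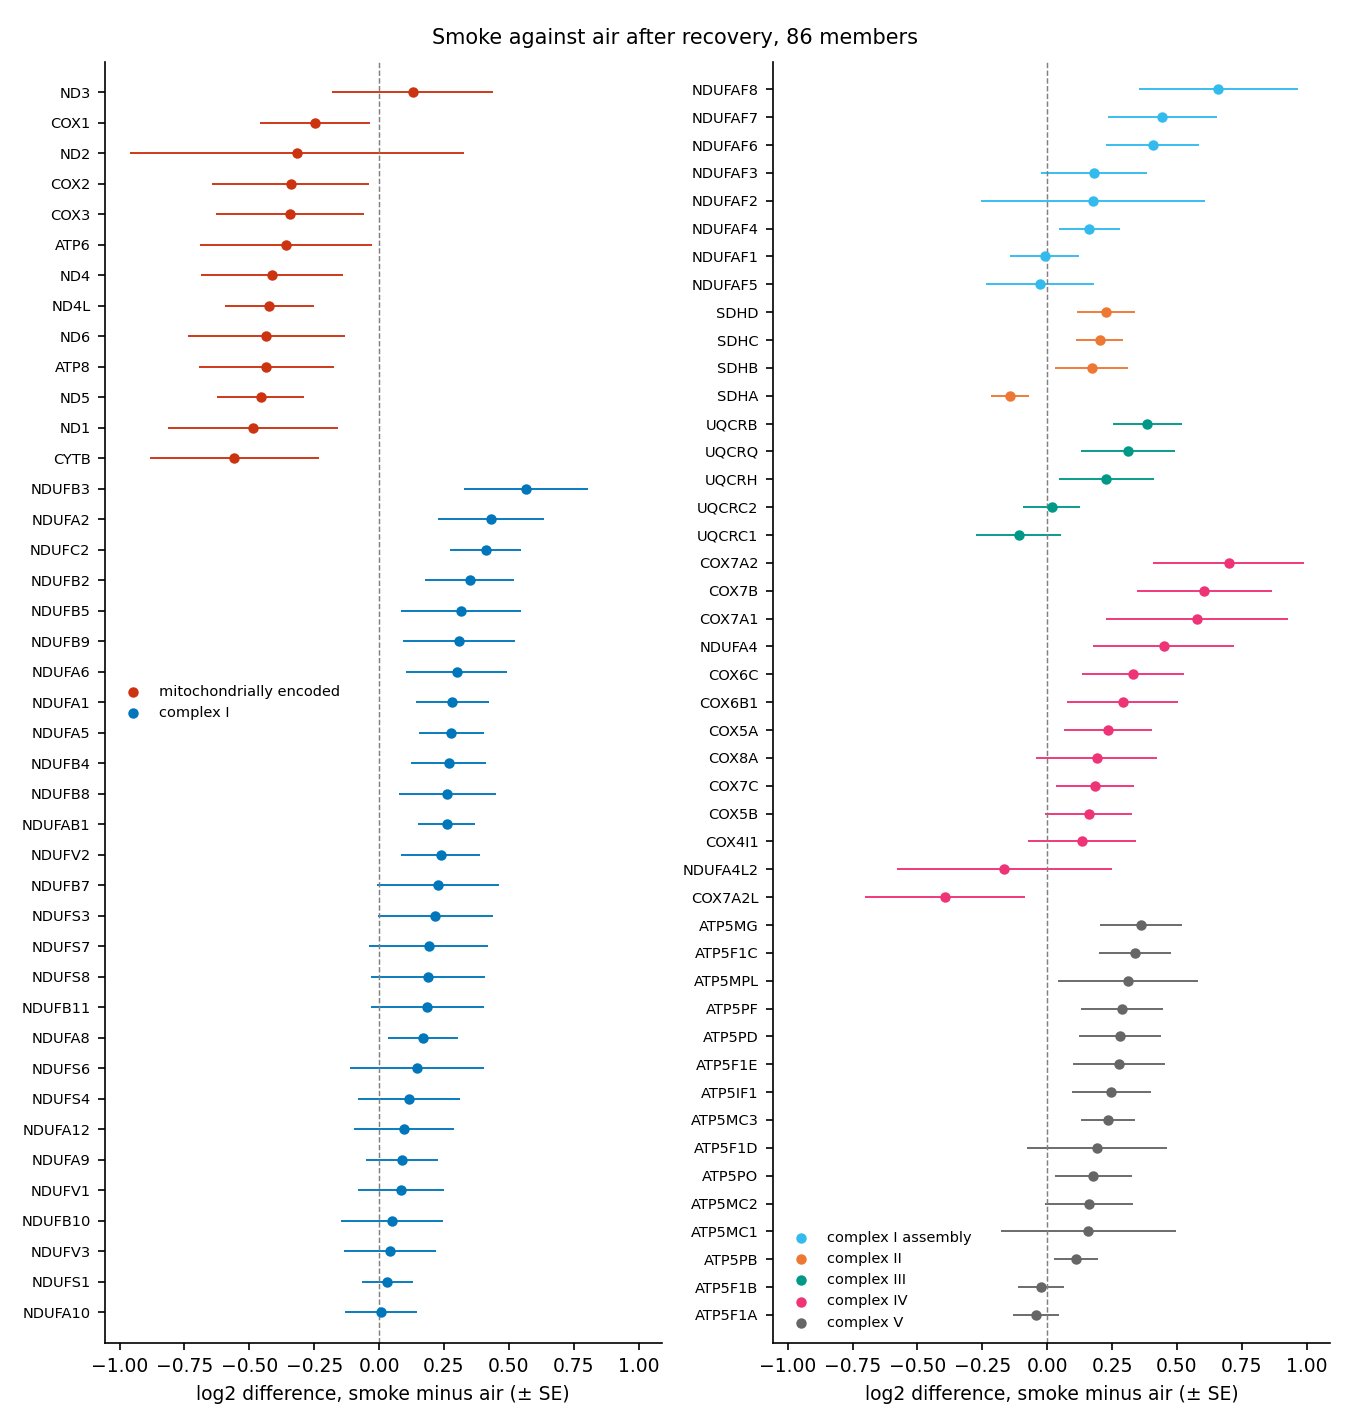
Log2 difference between smoke and air after recovery for 86 members, with the standard error from limma without a block (bars), grouped by class. All mitochondrially encoded genes except ND3 (0.13) lie below 0, and most nuclear members lie above it, up to COX7A2 at 0.70.

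Some members also differed between days in air alone, where the number of filtered-air sessions and the day of harvest change together. From 1 day to 5 days ND5 fell in air from 66241, 49279, 46703 and 57488 to 30895, 26716, 28209 and 21172, without overlap (−1.04 ± 0.17, adjusted p = 0.00284), and ND4L fell by 0.95 (adjusted p = 0.00559). All 13 mitochondrially encoded genes were lower, with a median of −0.54, and of −0.93 in the reduced paired fit. Basal cell markers moved over the same interval: their sum was 49723 to 66762 in air after 1 day and 28554 to 52674 after 5 days, the highest of the latter in S1. In smoke it went from 50530 to 61994 down to 29846 to 36333, without overlap. The part of cell composition in the differences between days was not tested. NDUFB4 (0.56 ± 0.15), NDUFAF8 (1.17 ± 0.31), UQCRB (0.49 ± 0.13) and NDUFC2 (0.51 ± 0.14) rose, so 6 members passed, beside 3.98% of tested genes, and 21 in the paired fit, beside 19.4%. Without the S1 library these 4 were at 0.36, 1.08, 0.31 and 0.38, of which NDUFAF8 and NDUFC2 no longer passed (adjusted p = 0.0649 and 0.0893), and 13 members passed in all, of which 11 were mitochondrially encoded and lower, beside 4.2%. That fit had no block and kept the 1-day air library of S1, whose mitochondrial share was the highest of its group (8.82%). The 4.2% is not a neutral comparison, since the library left out held more of most members. In smoke over the same interval ND5 went from 47807, 47248, 50032 and 52687 to 34047, 31764, 30985 and 30833. The groups did not overlap, and the difference of −0.63 ± 0.17 passed in the paired fit (adjusted p = 0.0140) and in the reduced one (0.00187) but not without a block (0.173). ND4L passed in the same fits (−0.58 ± 0.17, adjusted p = 0.0237 and 0.00358). Without a block 0 members passed in smoke, beside 0.284% of tested genes, with 10 at an unadjusted p under 0.05, beside 8.26%; the paired fit passed 2, beside 3.48%.

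From 5 days to recovery the air cultures went the other way, and the sum of the basal markers there was 44384 to 53689 after recovery. ND5 rose by 0.58 ± 0.17 (adjusted p = 0.0315) and 13 nuclear members fell, so 14 passed, beside 11.3% of tested genes, and 39 in the paired fit, beside 28.4%. The 14 included NDUFV1 (−0.60 ± 0.17), the flavoprotein of complex I, SDHD (−0.40 ± 0.11), ATP5F1E (−0.63 ± 0.18), COX7C (−0.52 ± 0.15) and NDUFAF8 (−1.04 ± 0.31). Without the S1 library the differences were −0.32 for NDUFV1, −0.36 for ATP5F1E, −0.30 for COX7C and −0.39 for SDHD, and NDUFAF8, at −0.95, no longer passed (adjusted p = 0.0741). In smoke only SDHA passed without a block, falling by 0.38 (SE 0.07, adjusted p = 0.0183), beside 0.512% of tested genes. It went from 2295, 2191, 2318 and 2560 to 1722, 1840, 1733 and 1892 without overlap. The paired fit passed 4, beside 8.06%, among them ATP5F1A (−0.30) and UQCRC2 (−0.22).

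The log2 ratio of the mitochondrial to the nuclear sum followed these steps. From 1 day to 5 days it changed by −0.82 ± 0.34 in air and −0.56 ± 0.12 in smoke (SD, n = 4), lower in 4 of 4 animals in both. From 5 days to recovery it changed by 0.56 ± 0.25 in air, higher in 4 of 4, and by −0.06 ± 0.33 in smoke, higher in 2 of 4. The change of the smoke effect over that interval was not past the threshold for any single member without a block (0 of 87, beside 0.348% of tested genes, with 18 at an unadjusted p under 0.05, beside 11.4%). The paired fit passed 3 members, beside 3.56%, among them ND5 (−0.72 ± 0.24, adjusted p = 0.0432) and SDHD, and the reduced paired fit 19 members, 11 of them mitochondrially encoded and lower, beside 11.3%. The 11.3% is not a neutral comparison for the 19, since the library left out belongs to the 5-day air group and held more of most members. From 1 day to 5 days the smoke effect changed for 0 members without a block, in the paired fit and in the reduced one, beside 0.0142, 0.0427 and 0.306% of tested genes, and 1 had an unadjusted p under 0.05 without a block, beside 3.65%.

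Animals differed in a few members beyond any group difference. ND2 ranged from 42790 to 124751 in S1 and from 30365 to 59892 in S2, but from 14530 to 26247 in S3 and from 12445 to 30170 in S4, so every library of S1 and S2 lay above every library of S3 and S4. Set against ND1 in the same library, the log2 ratio of ND2 to ND1 was 0.19 to 0.55 in S1 and S2 and −0.95 to −0.56 in S3 and S4, with no overlap in any group. Its means by animal spanned 1.71 on the log2 scale, the widest range among the members, followed by NDUFA4L2 at 1.30.

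**Figure D4:**
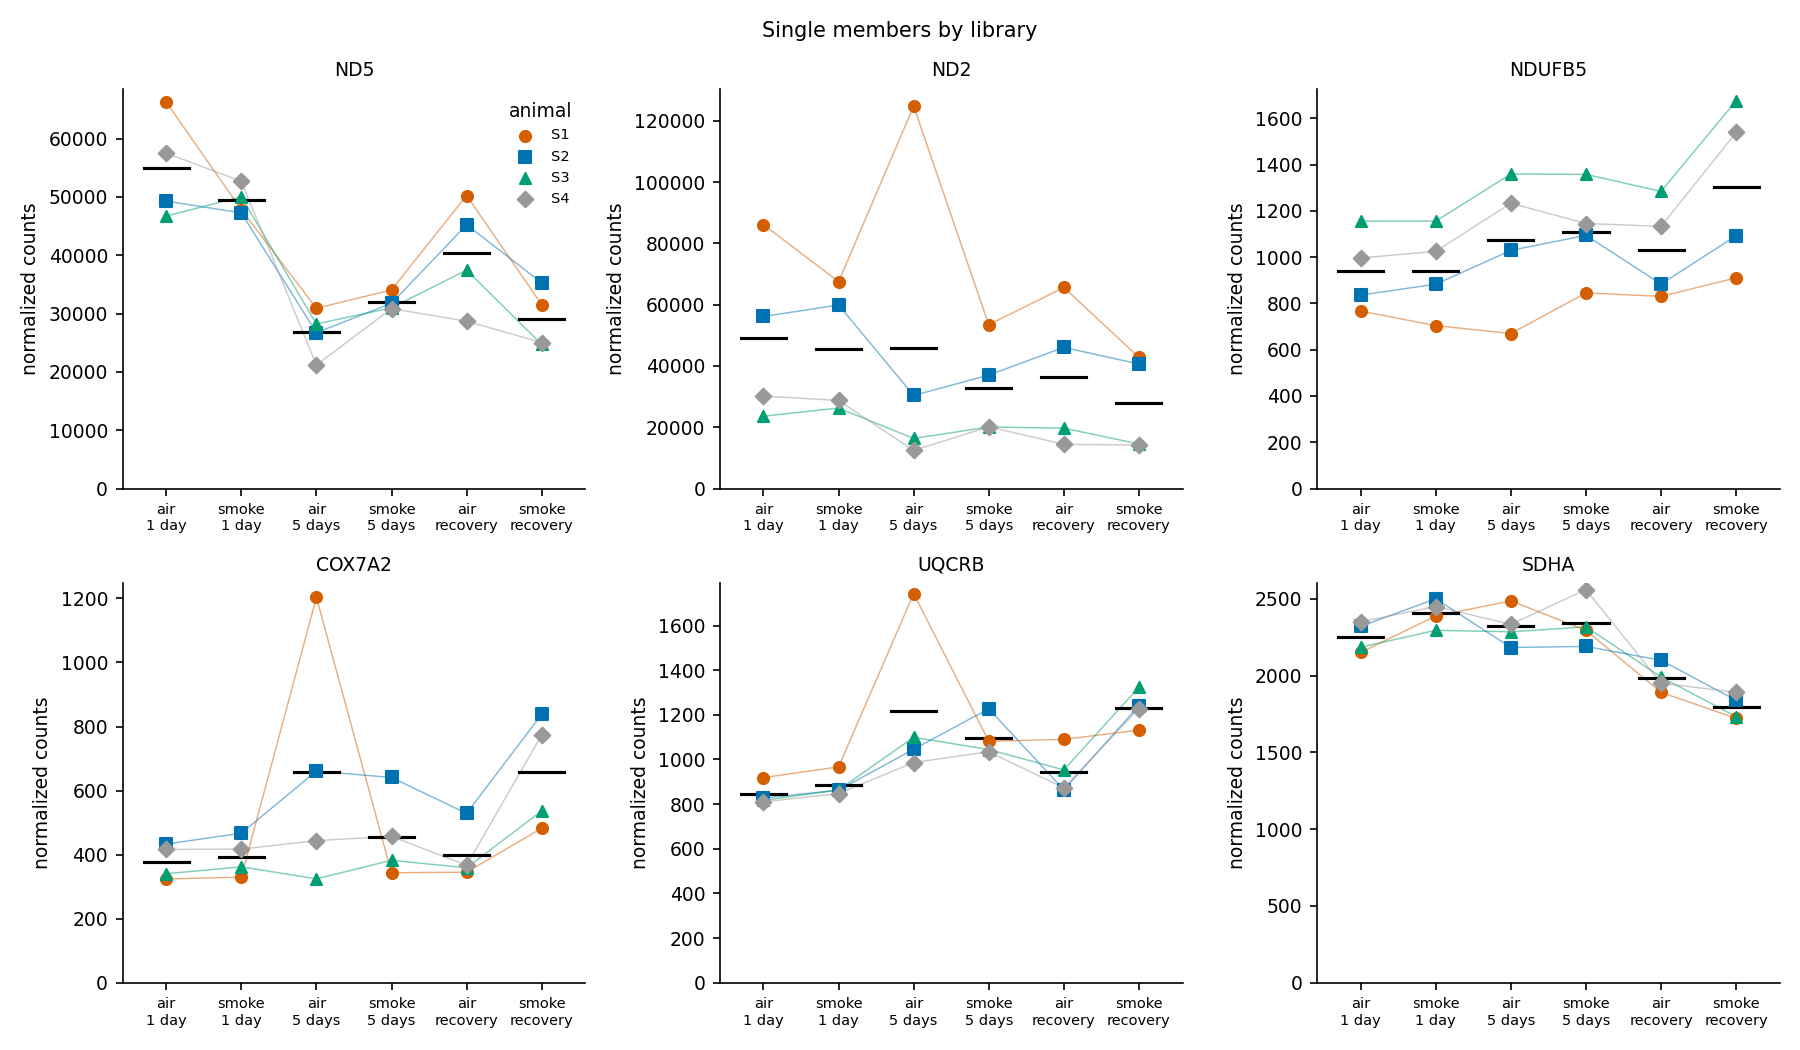
Normalized counts of 6 members by group (ND5, ND2, NDUFB5, COX7A2, UQCRB and SDHA); points are libraries, lines join the libraries of an animal and black bars are group means. ND2 separates S1 and S2 from S3 and S4 in each group, and ND5 drops from 1 day to 5 days in all animals.

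The 5-day air library of S1 held more of most members than the other air libraries of that day. Over their mean on the log2 scale, the mitochondrially encoded genes were 1.69 higher in the median and the nuclear members 0.94, beside −0.01 for all tested genes. Complex IV led the nuclear classes with a median of 1.40, and COX4I1 was at 8429 against 3319, 3051 and 2940 in S2 to S4. ND2 exceeded that mean by 2.77, ATP5MC1 by 2.18 and COX7A1 by 1.96. ND5 and ND4L exceeded it by only 0.30 and 0.34, so the log2 ratio of ND5 to ND4 was −2.42 in this library and −1.36 to −0.97 in the other 23. Below the mean were 7 nuclear members, among them NDUFB5 (−0.84), COX7A2L (−0.57), NDUFS1 (−0.51) and ATP5F1A (−0.19). The sum of the 5 goblet and club cell markers was 165001 in the same library, the highest of the 24, of which 159768 came from BPIFB1, a secreted protein of the airway; the next sum was 110109 in smoke after 5 days. The library also had the highest basal (52674) and the lowest ciliated (4546) marker sum of its group. The part of cell composition in the values of that library was not tested.

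**Figure D5:**
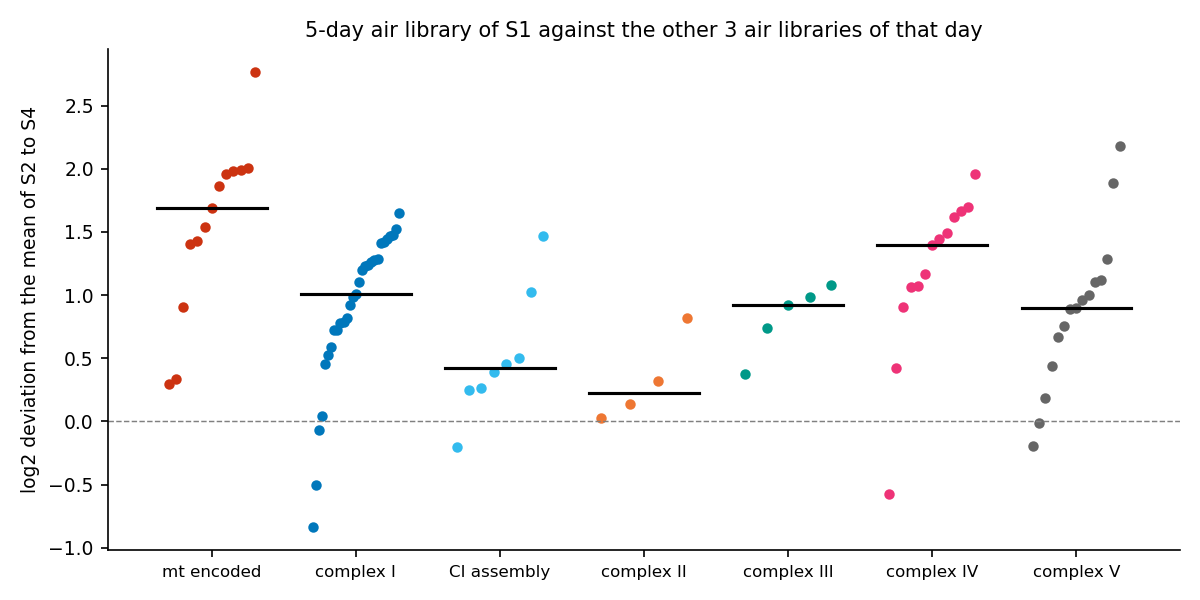
Log2 deviation of each member in the 5-day air library of S1 from the mean of the air libraries of S2 to S4 of that day, by class, with black bars at class medians. The mitochondrially encoded median is 1.69 and the complex IV median 1.40, and 7 nuclear members lie below 0.

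Over libraries, pairs of mitochondrially encoded genes varied together most closely. After group means were removed, the median Pearson r between pairs was 0.87 for 78 mitochondrial pairs, 0.68 for 2145 pairs of nuclear subunits and 0.61 for 858 mixed pairs over 24 libraries. Without the 5-day air library of S1 the medians were 0.83, 0.19 and 0.11 over 23 libraries, so the nuclear and mixed medians were lower and the mitochondrial one stayed high. These r are descriptions: the pairs share libraries, animals and scaling.

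Other genes of mitochondrial function were read from lists chosen with earlier results known. Of 199 such genes 0 passed limma without a block at 1 day, 5 days or recovery, beside 0.0284, 0.0711 and 0.242% of tested genes. At an unadjusted p under 0.05 there were 3, 19 and 25, beside 1.88, 9.29 and 8.51% of tested genes. The mitochondrial ribosome list was taken by symbol alone (MRPL or MRPS), so a member such as MRPS36 need not be a ribosomal subunit. After recovery 61 of its 67 genes were above 0 (median 0.21). In the reduced paired fit 21 passed, all higher, beside 18.8% of tested genes, among them MRPS36 (0.53) and MRPL42 (0.42). The 18.8% is not a neutral comparison for this list either. From 1 day to 5 days in air its median was 0.34 with the 5-day air library of S1 and 0.12 without it. In the paired fit 0 of the 67 passed, beside 3.41% of tested genes. Without a block 9 of the 67 had an unadjusted p under 0.05, beside 8.51% of tested genes. Assembly factors of complexes II to V were above 0 for 25 of 28 (median 0.15). In the paired fit 2 of them rose, beside the same 3.41%, TMEM70, which helps build complex V (0.64 ± 0.15, adjusted p = 0.0156), and COX11, a copper chaperone of complex IV (0.54 ± 0.20, adjusted p = 0.0463). At 5 days COX11 (−0.66, adjusted p = 0.0284) and BCS1L, an assembly factor of complex III (−0.48, adjusted p = 0.0232), were lower in the paired fit, beside 1.69% of tested genes passing. FASTKD5 (0.49, adjusted p = 0.0311) and ELAC2 (0.43, adjusted p = 0.0394), which act in the cutting of mitochondrial precursor RNA, were higher. The tricarboxylic acid cycle was split after recovery, with 9 of 18 above 0. There IDH3A rose in the paired fit (0.33, adjusted p = 0.0496). Regulators of mitochondrial biogenesis were above 0 for 6 of 12, genes of mitochondrial transcription and replication for 10 of 13, RNA processing genes for 13 of 17, import genes for 16 of 20, electron carriers and alternative inputs for 13 of 17, and carriers of ATP and phosphate for 4 of 7. Of the last, VDAC3, a channel of the outer membrane, rose in the paired fit (0.29, adjusted p = 0.0294).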

How the data were processed

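Per the labels' protocols, poly-A selected libraries were made from cultured airway epithelium, and the submitters' processing notes list RSEM, Bowtie2, Trim Galore and FastQC without versions. No source used here gives the genome build, the annotation or the normalizing tool, so no positions or sequences are printed. The values deposited are a normalized signal. Against the geometric mean of all libraries, the median ratio was 1.01 in each of the 24. Of low values (up to 20 steps), 76.0 to 83.0% were whole multiples of a library's own step within 0.1. Whole reads were therefore not recovered and no count model was used. The totals are sums of normalized values, so they do not give sequencing depth. The step ran from 0.727 to 1.60 and was largest in the 5-day air library of S1. If 1 step is 1 read, that library was scaled up the most. Precision is the spread between animals. Whether counting used strand is not given. Genes reaching 10 in 4 or more libraries entered the test, on log2(value + 1) with limma 3.58.1 (trend) in R 4.3.3, with group means over 24 libraries and two-sided tests. P-values were adjusted over all tested genes by Benjamini-Hochberg, with 0.05 as threshold. Libraries of an animal are pairs by label: deviations from group means correlated at a median of 0.61 within animals and −0.21 between them. The value between animals is pushed below 0 because the deviations sum to 0 within a group. Genes named are the 13 mitochondrially encoded ones, members passing in any comparison without or with the block (5 per direction where over 10), the nuclear member with the smallest p per complex and smoke comparison, isoform and regulatory members, and 3 per other list; NDUFA2, NDUFAB1, NDUFAF6, NDUFAF7, UQCRQ, UQCRC1, COX7B, ATP5MG and the members passing only in the reduced paired fit were singled out after their values were seen. The values of 1 member are not reported here. The members and lists were chosen with earlier results of these data known. The procedure was run on simulated data of the same size, for smoke against air after recovery only. Simulated libraries were drawn independently, with no animal effect and no outlying library. The simulation therefore cannot show how calls behave with those features.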

Additional observations from a re-analysis of the deposited data

Results flagged for a closer look

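For 3 summary measures and 13 picked members, each of the 6 groups of 4 libraries was examined. The picked members were ND5, ND2, ND4, NDUFC2, COX7A2, NDUFA4L2, NDUFB5, SDHA, NDUFB4, SDHD, COX4I1, COX7A1 and UQCRB. Of these 96 groups, 13 held a library whose gap to the nearest other, divided by the range of the group, exceeded 0.829. About 1 in 20 groups of independent, normally distributed values would exceed it. The members here were not drawn at random, they share the same libraries, and no share over other genes is given. The 13 therefore cannot be read as an excess. In 7 of the 13 the library was the 5-day air culture of S1, high in the mitochondrial share (0.870), the nuclear share (0.947), ND2 (0.840), ND4 (0.847), COX4I1 (0.931), COX7A1 (0.891) and UQCRB (0.851). UQCRB was also high in S1 after 1 day in air (0.840) and smoke (0.865). The other 4 were COX7A2 in air after recovery (S2 high, 0.883), NDUFB4 in air after recovery (S1 high, 0.831), SDHD in smoke after 5 days (S4 low, 0.907) and COX4I1 in smoke after 5 days (S4 low, 0.860).

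Signs of the smoke effect at different times were compared for the picked members, with no share given over other genes. In 3 of the picked members the smoke effect had opposite signs at 2 times in all 4 animals. From 5 days to recovery it changed by −0.72 on the log2 scale for ND5 and by 0.35 for SDHD, both past the threshold in the paired fit and in the paired fit that leaves out the 5-day air culture of S1, and not without a block. From 1 day to recovery it changed by −0.24 for SDHA, a difference that was not tested.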

How the results depend on the processing

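With animal as a block (replicate block), members called went from 0 to 1 at 5 days and to 1 after recovery in smoke against air, from 0 to 3 for the change from 5 days to recovery, from 6 to 21 and from 14 to 39 in air over the 2 intervals, and from 0 to 2 and from 1 to 4 in smoke. With the block, leaving out the S1 air library of day 5, they were 8, 44, 19, 29, 39, 33 and 20 in the same order. The first 3 of these counts stand beside 6.26, 18.8 and 11.3% of tested genes, which are not neutral comparisons because the library left out held more of most members. The 1-day count and the change from 1 day to 5 days stayed at 0 in both fits. Counts here and below without a share over all tested genes show only how calls depend on the processing. They do not show whether the members differed more than other genes. Without a filter the 2 air comparisons gave 3 and 5, from only their own libraries 0 and 0 (and 1 and 0 in smoke), and at adjusted p under 0.1 17 and 32. From 5 days to recovery in air, scaling by totals gave 9 and by totals without mitochondrially encoded genes 6, of which 2 were higher in both. Those scalings put the nuclear median at 1 day at −0.00435 and −0.0156 (class medians under each alternative were chosen after seeing the data). Leaving out a library or an animal gave 0 to 12 calls after recovery (12 without S1), 0 to 18 and 0 to 35 in air (the highest without the 5-day air library of S3), 0 to 4 and 0 to 7 in smoke (the highest without that of S1), and 0 otherwise. Over the same omissions the mitochondrially encoded median ran from −0.18 to 0.06 at 1 day, from −0.16 to 0.52 at 5 days and from −0.60 to −0.25 after recovery, and the nuclear one from 0.06 to 0.10, −0.28 to 0.10 and 0.18 to 0.25. The ratio difference ran from −0.18 to −0.04, −0.02 to 0.26 and −0.56 to −0.46 without single animals. Reduced to the block without that library, SDHB (0.0119), UQCRH (0.0276), NDUFAF3 (0.13) and NDUFB8 (0.33) were above 0 at 5 days, against below 0 before, and NDUFB8 was at 0.0720 and 0.0705 under the scalings by totals. Omissions of a library or an animal carried these smoke effects across 0. At 1 day COX7A2L ran from −0.0560 to 0.78. At 5 days ND1 ran from −0.00653 to 0.69, ND3 from −0.16 to 0.56, COX3 from −0.0591 to 0.57, NDUFS4 from −0.0433 to 0.44, NDUFB8 from −0.22 to 0.33, ATP5MC1 from −0.16 to 0.71, COX7B from −0.75 to 0.0328, SDHB from −0.32 to 0.0289, UQCRH from −0.42 to 0.0716 and NDUFAF3 from −0.39 to 0.10. After recovery ND3 ran from −0.0277 to 0.28, ND2 from −0.67 to 0.0537, NDUFS1 from −0.00621 to 0.0728, ATP5F1A from −0.0897 to 0.0123 and ATP5F1B from −0.0722 to 0.0105. Without the 5-day air library of S1 the median r was 0.19 for nuclear pairs and 0.11 for mixed pairs. With animal means removed as well as group means, all 24 libraries gave 0.83 and 0.68. The same step without that library gave 0.36 and −0.0054. The causes were not tested, and the number of animals limits precision.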
